A study of Homo sapiens with 6 samples.

Results

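The 10 genes described here code for enzymes of glycolysis, the pathway that splits glucose to pyruvate, and were listed by gene symbol, with earlier results of these data known. They are GPI, PFKP, ALDOA, TPI1, GAPDH, PGK1, PGAM1, ENO1, PKM and LDHA, and all 10 were found among the 23062 identifiers of the deposited tables. RNA sequencing was performed in DU145 cells, an established human prostate cancer line derived from a brain metastasis and wild type in the labels. The 3 control libraries came from cells kept in MEM medium, and the 3 TAX libraries from cells given taraxasterol (TAX), a plant triterpene, at its half-inhibitory dose, each for 48 h. TAX was dissolved in DMSO in the study, and whether the control medium held DMSO was not stated, so TAX and its solvent cannot be told apart. The study repeated its experiments in general, but no label says that the 3 libraries of a group came from separate cultures, so each p-value measures the spread between these libraries, which may be technical.

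Glycolysis yields ATP without oxygen, and cancer cells are known to run it at a high rate even where oxygen is present. Phosphofructokinase, of which PFKP is the platelet form, commits the sugar to the pathway. GAPDH catalyzes the oxidation step that yields NADH, PGK1 and PKM form ATP, and LDHA reduces pyruvate to lactate. Most of these genes are textbook targets of the hypoxia-inducible factor HIF and of MYC, and GAPDH served as the reference of the real-time qPCR in the study.

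The sequences of the GAPDH assay are shown because each qPCR value of the study is relative to it. The GAPDH gene lies on the plus strand of chromosome 12 at 6533927 to 6538374 (GRCh38, GENCODE 29). Within the transcript of 9 exons, the forward primer lay in exon 4 at 6536748 to 6536771 and the reverse primer in exon 6 at 6537115 to 6537134. The product of 168 bases, read from the GENCODE transcript, is given with the primer sites in capitals.
GAPDH forward primer: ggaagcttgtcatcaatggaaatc
GAPDH reverse primer: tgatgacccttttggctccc
GAPDH product: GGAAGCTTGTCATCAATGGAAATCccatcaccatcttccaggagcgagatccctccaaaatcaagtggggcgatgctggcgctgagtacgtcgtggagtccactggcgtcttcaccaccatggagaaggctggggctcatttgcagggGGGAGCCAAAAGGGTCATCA
The primer pair also matched transcripts of 6 other genes, 5 of them processed pseudogenes of GAPDH. GENCODE 29 names 62 pseudogenes of GAPDH, more than of any other enzyme of the set, against 13 of PGAM1, 6 of LDHA, 5 of PKM, 4 each of TPI1 and ENO1, 2 of ALDOA, 1 of PGK1 and 0 of GPI and PFKP. None of these 97 pseudogenes had a row of its own in the tables. Of 10191 names of processed pseudogenes in GENCODE 29, 25 had one, so such rows were rare for any gene. How reads shared with these copies were counted was not stated, so the levels of GAPDH, PGAM1 and the other genes with pseudogenes are uncertain to that extent.

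The letters ACGTG are the core of the HIF binding motif, and CACGTG is the E-box that MYC binds. On either strand, ACGTG occurred in a promoter window of 7 of the 10 enzymes and in 9 of their 17 windows. Of all 35116 RefSeq windows of 300 bases (GRCh38.p14), 21.4% held it and 7.26% held CACGTG, which contains ACGTG on both strands. The LDHA and PGK1 windows held the most matches of ACGTG, 5 and 3, and the window of GAPDH is shown with its 2 because GAPDH is the qPCR reference. They are printed on the plus strand with the matches in capitals, and 1 window of ALDOA also held 2 matches.
LDHA, chr11:18394313-18394612: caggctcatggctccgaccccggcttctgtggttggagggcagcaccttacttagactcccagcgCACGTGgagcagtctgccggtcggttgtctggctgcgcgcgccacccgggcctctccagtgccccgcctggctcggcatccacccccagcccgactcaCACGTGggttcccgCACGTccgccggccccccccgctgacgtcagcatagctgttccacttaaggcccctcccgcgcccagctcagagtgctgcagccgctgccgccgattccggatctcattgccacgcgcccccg
PGK1, chrX:78103998-78104297: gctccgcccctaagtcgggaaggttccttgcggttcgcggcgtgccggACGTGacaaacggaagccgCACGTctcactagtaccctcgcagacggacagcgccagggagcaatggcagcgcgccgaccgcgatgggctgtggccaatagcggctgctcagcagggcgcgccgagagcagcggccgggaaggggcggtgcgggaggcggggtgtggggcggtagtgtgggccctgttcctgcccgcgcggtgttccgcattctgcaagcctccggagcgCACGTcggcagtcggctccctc
GAPDH, chr12:6535014-6535313: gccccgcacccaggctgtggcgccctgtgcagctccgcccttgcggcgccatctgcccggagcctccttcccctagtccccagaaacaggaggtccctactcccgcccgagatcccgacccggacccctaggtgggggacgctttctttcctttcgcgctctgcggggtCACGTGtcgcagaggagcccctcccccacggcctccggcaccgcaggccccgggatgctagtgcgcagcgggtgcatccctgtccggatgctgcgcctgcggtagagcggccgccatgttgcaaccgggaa
The first window held CACGTG at 2 places and the GAPDH window at 1 place, while the PGK1 window held ACGTG without it. The ALDOA window with 2 matches also held CACGTG, so 3 of the 17 windows of the enzymes did, against 7.26% of all windows. The other LDHA window, not shown, held no ACGTG. A match in letters is a description and not a site shown to be bound.

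The values are taken as FPKM, a level scaled to the gene's length and to the fragments of the library, though the tables name no unit. TPM over all genes has the same sum in every library. The sums given below were unequal, so TPM remains possible only if rows were left out. Both units allow levels to be compared between genes. Summed FPKM ranged from 322483 to 363724 per library, and no read totals were given, so the depth behind each value is unknown. Control replicate 3 stood apart before any comparison. Its median log2(FPKM + 1) over the tested genes was 3.28, against 3.44 to 3.46 in the other 5 libraries, and it held the lowest value for 7164 of 12359 tested genes, or 58.0%. Results are therefore also given without it. Epithelial KRT8 ranged from 126 to 173 FPKM and EPCAM from 55.0 to 66.2 FPKM, and the luminal prostate genes KLK3 and KLK2 were listed at 0 in all 6 libraries. The blood marker HBB was listed at 0 and PTPRC did not exceed 0.00692 FPKM. A bulk library holds the RNA of all cells, so fewer cells with a transcript and less of it per cell cannot be told apart.

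To examine whether TAX changed glycolysis at the mRNA level, the 10 enzymes were compared between the groups. None of the 10 passed an adjusted p of 0.05 by limma, and none reached an unadjusted p of 0.05. Over all tested genes, 59 of 12359 (0.477%) passed the adjusted threshold, and 7.73% were higher and 2.41% lower at the unadjusted one. On log2(FPKM + 1), the enzymes changed by between 0.00 (TPI1) and 0.21 (PFKP), with a median of 0.09 against 0.05 for all tested genes. Each fold change given here and below is a log2 value unless called a ratio. All 10 fold changes were above 0 as deposited, as were 69.1% of those of all tested genes, but TPI1 was below 0 with libraries scaled to equal sums, GPI, TPI1 and PGK1 after quantile normalization, and these with ALDOA after centring on the library median or dividing by GAPDH. Without control replicate 3, GPI, ALDOA, TPI1, GAPDH and PGK1 were below 0 and the median of the 10 was -0.0052, and without control replicate 2 it was 0.16. For PFKP, PGAM1, ENO1, PKM and LDHA, the fold change was above 0 in each of the 11 alternatives that can move it, namely another pseudocount, 4 scalings and each of the 6 libraries left out.

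**Figure D1:**
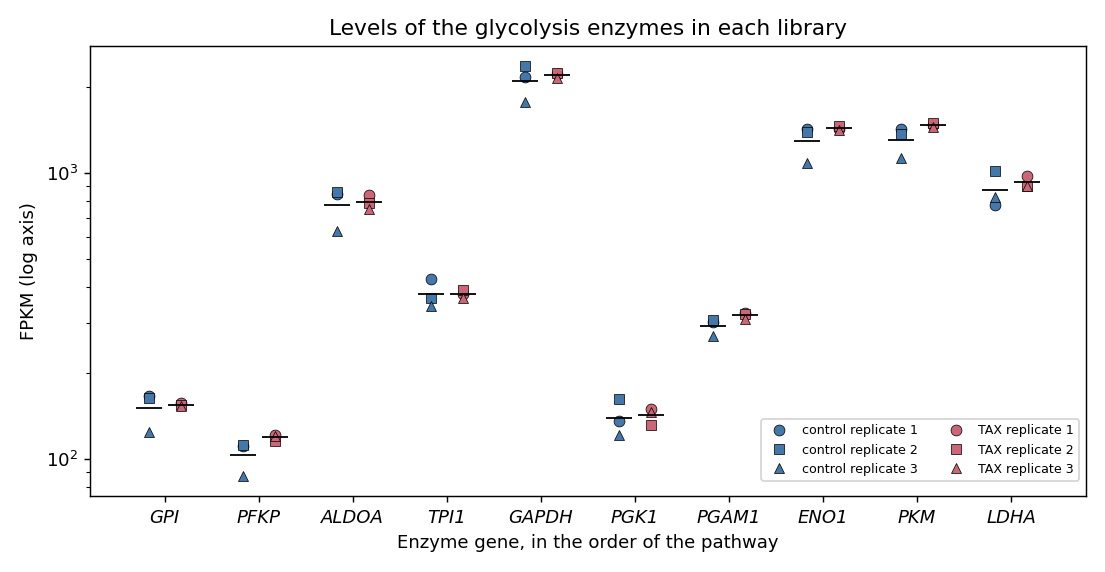
FPKM of each enzyme gene on a log axis, in the order of the pathway, with 1 point per library (blue, control; red, TAX) and a line at each group mean. GAPDH is the highest and PFKP the lowest, and the triangle of control replicate 3 is the lowest point for 9 of the 10 genes.

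The upper part of the pathway turns glucose into triose phosphates. GPI, which interconverts glucose 6-phosphate and fructose 6-phosphate (chromosome 19, 34359480 to 34402413, plus strand), had 165, 163 and 124 FPKM in control and 157, 154 and 154 FPKM in TAX. All 3 TAX values lay inside the control range, and the means of 151 ± 23.2 and 155 ± 2.16 FPKM (SD, n = 3) differed by less than the control SD. PFKP (chromosome 10, 3066333 to 3137712, plus strand) had 111, 112 and 87.3 FPKM in control and 121, 115 and 120 FPKM in TAX. All 3 TAX libraries were above all 3 controls, the gap being smallest between control replicate 2 and TAX replicate 2. The log2 fold change of PFKP was 0.21 with an SE of 0.10 and a 95% confidence interval from -0.02 to 0.44, and it did not pass limma (adjusted p = 0.516). Without control replicate 3 its fold change was 0.10, still with no overlap between the groups.

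ALDOA, the aldolase that cleaves fructose 1,6-bisphosphate (chromosome 16, 30064164 to 30070457, plus strand), had 845, 858 and 626 FPKM in control and 836, 784 and 751 FPKM in TAX. Control replicates 1 and 2 were above every TAX library and control replicate 3 was below, so that the groups overlapped only through that library. Its log2 fold change was 0.04 with all libraries and -0.11 without control replicate 3. TPI1, which interconverts the pair of triose phosphates (chromosome 12, 6867119 to 6870948, plus strand), had 425, 367 and 343 FPKM in control and 377, 391 and 366 FPKM in TAX. Control replicate 1 was the highest of the 6 and control replicate 3 the lowest, and both means were 378 FPKM. TPI1 had the smallest change of the set (log2 fold change 0.00, SE 0.10, adjusted p = 0.992 by limma).

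The lower part of the pathway recovers ATP and NADH. GAPDH had 2171, 2367 and 1783 FPKM in control and 2230, 2240 and 2155 FPKM in TAX. All TAX values lay between those of control replicates 3 and 2, and the means were 2107 ± 298 and 2209 ± 46.5 FPKM (SD, n = 3). As a ratio, the 95% confidence interval of its change ran from 0.871 to 1.28, around a log2 fold change of 0.08 (limma adjusted p = 0.844). Changes within that range were not resolved. PGK1, the first ATP-forming enzyme (chromosome X, 77910739 to 78129296, plus strand), had 135, 162 and 121 FPKM in control and 150, 132 and 146 FPKM in TAX. Its highest value was in control replicate 2 and its lowest in control replicate 3, with the TAX libraries between them (log2 fold change 0.04, SE 0.11).

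PGAM1 moves the phosphate group of phosphoglycerate (chromosome 10, 97426160 to 97433441, plus strand), and it had 301, 306 and 269 FPKM in control and 325, 321 and 308 FPKM in TAX. Each TAX library was above each control, the gap being narrowest between control replicate 2 and TAX replicate 3. Its log2 fold change was 0.13 (SE 0.09, limma adjusted p = 0.650) and 0.07 without control replicate 3. ENO1, an enolase (chromosome 1, 8861000 to 8879250, minus strand), had 1425, 1391 and 1089 FPKM in control and 1430, 1460 and 1416 FPKM in TAX. TAX replicate 3 fell just below control replicate 1, so the groups overlapped, and control replicate 3 was far below the rest. The log2 fold change of ENO1 was 0.15 (SE 0.12, limma adjusted p = 0.686) and 0.03 without control replicate 3.

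PKM, which forms pyruvate and the second ATP (chromosome 15, 72199029 to 72231822, minus strand), had 1426, 1374 and 1127 FPKM in control and 1473, 1505 and 1450 FPKM in TAX. The groups did not overlap, and the log2 fold change was 0.18 (SE 0.12, limma adjusted p = 0.614), or 0.08 without control replicate 3. The tables hold 1 value for PKM, so its M1 and M2 splice forms were not separated. LDHA (chromosome 11, 18394388 to 18408425, plus strand) had 775, 1020 and 825 FPKM in control and 980, 902 and 905 FPKM in TAX. Unlike the other 9 enzymes, LDHA was lowest in control replicate 1, and the TAX libraries lay within the control range (log2 fold change 0.10, SE 0.12). Its fold change was 0.02 without control replicate 1, 0.21 without control replicate 2 and 0.06 without control replicate 3 or TAX replicate 1.

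Thus PFKP, PGAM1 and PKM were the enzymes without overlap, all higher in TAX. This is 3 of 10, where 14.6% of all tested genes had every TAX library above every control and 3.34% every TAX library below. The exact two-sided permutation p of each of the 3 was 0.1, the smallest that 3 against 3 libraries allow. Without control replicate 3, the same 3 were higher without overlap (15.9% of all tested genes) and GPI and ALDOA became lower without overlap (13.4% of all tested genes). That comparison rests on 2 controls.

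**Figure D2:**
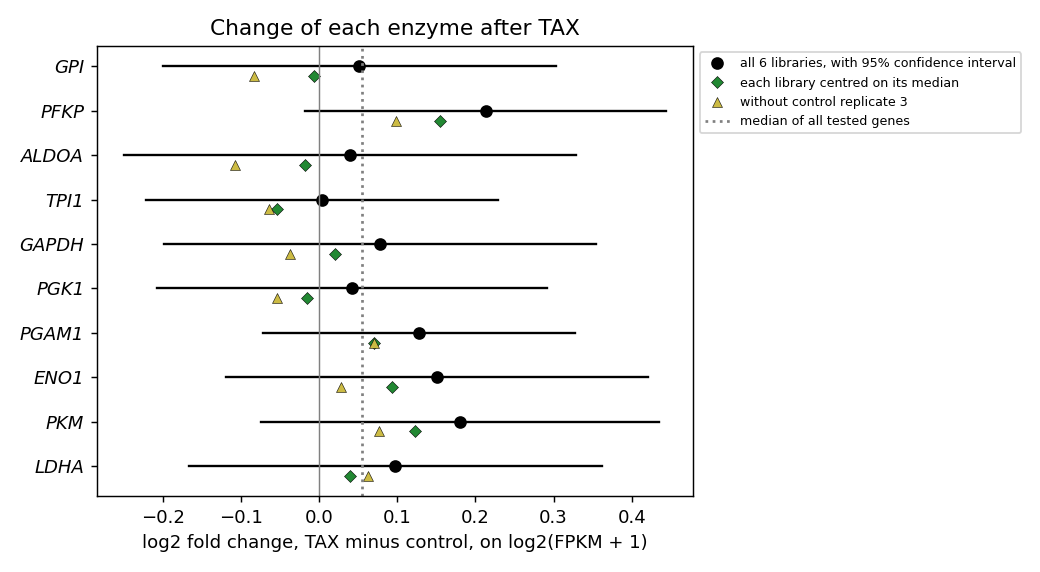
Log2 fold change of each enzyme (TAX minus control, on log2(FPKM + 1)) as a black point with its 95% confidence interval from limma, beside the value after centring each library on its median (green) and without control replicate 3 (yellow). Each interval includes 0, and GPI, ALDOA, TPI1 and PGK1 fall below 0 in both alternatives, GAPDH only without control replicate 3.

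The enzymes were among the most abundant transcripts of DU145. GAPDH ranked 9 to 12 of all identifiers over the 6 libraries, PKM 13 to 16, ENO1 13 to 17, LDHA 20 to 31 and ALDOA 25 to 40, down to PFKP at 388 to 524. By mean FPKM of all libraries the order was GAPDH (2158), PKM (1393), ENO1 (1369), LDHA (901), ALDOA (783), TPI1 (378), PGAM1 (305), GPI (153), PGK1 (141) and PFKP (111). PKM and ENO1 did not differ beyond their spread, nor did LDHA and ALDOA, since ENO1 exceeded PKM in control replicate 2 and ALDOA exceeded LDHA in control replicate 1. The other neighbors kept their order in every library, although GPI and PGK1 were close in control replicate 2, at 163 and 162 FPKM.

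The summed FPKM of the 10 enzymes was 7779, 8119 and 6394 in control and 8080, 8005 and 7771 in TAX. As a percentage of all values of a library, which does not depend on scaling between libraries, the set made up 2.14, 2.32 and 1.98% in control and 2.30, 2.24 and 2.25% in TAX. Control replicate 2 had the highest share and control replicate 3 the lowest, so the TAX libraries lay inside the control range. The groups differed by 0.113 percentage points, by 0.0299 without control replicate 3 and by 0.200 without control replicate 2.

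What the enzymes shared over the libraries was the low control replicate 3, while their highest values were spread over 4 libraries. Pearson's r between 2 enzymes on log2(FPKM + 1) was highest for ENO1 and PKM (0.986) and for GPI and ALDOA (0.972), over 6 libraries that share the low control replicate 3. LDHA and TPI1 stood at the other end with r = -0.36, and LDHA was closest to PGK1 (r = 0.79). The genes outside the set whose pattern was most like the mean of the enzymes were POLR3D (r = 0.998), MMS19 (r = 0.995) and XRN2 (r = 0.995), and 1030 tested genes had an r above 0.9. These values are descriptions of 6 points, of which control replicate 3 is the farthest.

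A share of isozymes within one library is free of the scaling between libraries, and was therefore compared at each step. Of the summed phosphofructokinase FPKM, PFKP made up 62.2, 61.5 and 62.0% in control and 64.7, 64.5 and 64.2% in TAX. The groups were well apart, with 61.9 ± 0.361 and 64.5 ± 0.277% (SD, n = 3). The difference of 2.55 percentage points ranged from 2.36 to 2.71 when each library was left out in turn. Its exact two-sided permutation p was 0.1, the smallest possible, and 0.500 after Benjamini-Hochberg adjustment over the 10 steps compared. The liver form PFKL had 21.2 ± 0.946% of the sum in control and 19.2 ± 1.17% in TAX, without overlap (exact permutation p = 0.1, n = 3), and the muscle form PFKM had 16.9 ± 0.638 and 16.3 ± 1.29% (exact permutation p = 0.7, n = 3). Among the leading isozymes of the other steps, only that of the transporter step had an equally small p. SLC2A1 made up 99.7, 99.4 and 99.5% of its sum with SLC2A3 and SLC2A4 in control and 99.8, 99.7 and 99.7% in TAX, narrowly without overlap (exact permutation p = 0.1, adjusted 0.500). That share rests on values near 0, since SLC2A3 and SLC2A4 did not exceed 0.303 FPKM in any library. The transporters SLC2A6 (9.30 to 11.2 FPKM) and SLC2A8 (5.26 to 6.45 FPKM) were not part of the sum. In FPKM, PFKL had 36.9, 40.4 and 28.98 in control and 38.1, 32.2 and 36.1 in TAX, and PFKM had 30.2, 29.3 and 24.5 against 28.0, 31.3 and 31.0, with overlap in both.

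PFKP was also set against the other enzymes of the set. Its log2 FPKM minus the log2 geometric mean of the 10 enzymes was -2.17, -2.21 and -2.23 in control and -2.09, -2.12 and -2.05 in TAX, with no overlap. The share of all tested genes without overlap on this scale was not computed. The values come from the same libraries and are no separate evidence.

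LDHA made up 66.9, 72.2 and 67.7% of the lactate dehydrogenase FPKM in control and 71.4, 68.3 and 69.5% in TAX. Control replicate 2 and TAX replicate 1 were the highest, and the groups overlapped (exact permutation p = 0.7, n = 3). The other subunit, LDHB, which favors the conversion of lactate to pyruvate, was nearly level at 390 ± 5.58 and 402 ± 13.96 FPKM (SD, n = 3), with a coefficient of variation of 2.91% over the 6 libraries. ENO1 made up 96.2 ± 0.413 and 96.4 ± 0.572% (SD, n = 3) of the enolase FPKM, and the neuronal form ENO2 had 45.4 ± 10.1 and 45.7 ± 7.88 FPKM. ALDOA, GAPDH, PGK1, PGAM1 and PKM each made up nearly all of the FPKM of their step, the lowest share being 99.08% for PGAM1 in control replicate 3. The brain aldolase ALDOC was low, at 1.59 ± 0.246 and 1.99 ± 0.351 FPKM (log2 fold change 0.20, limma adjusted p = 0.543). This is close to the 1 FPKM that genes had to reach to be tested.

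**Figure D3:**
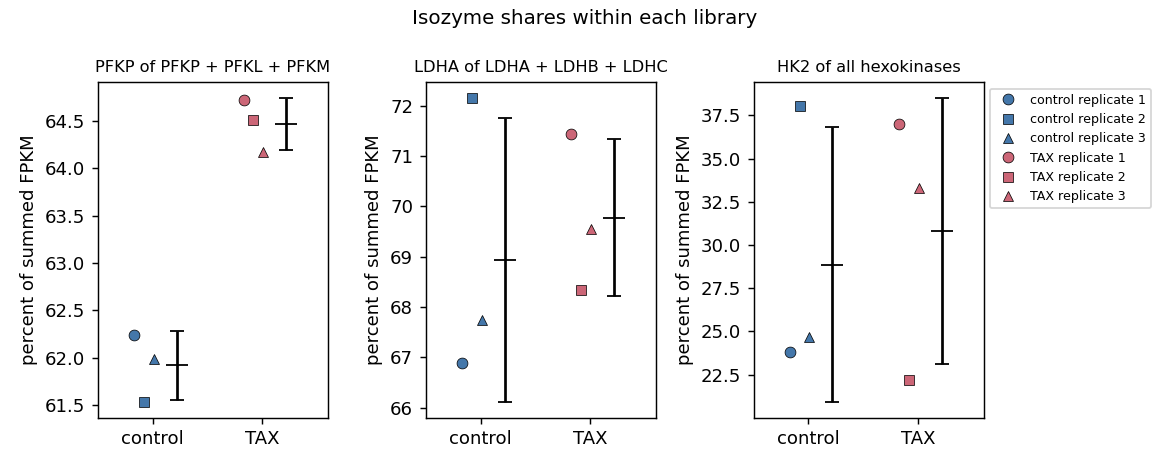
Percent of the summed FPKM of a step held by PFKP, LDHA and HK2 in each library (points; blue, control; red, TAX), with the group mean and SD as bars, on axes that do not start at 0. The groups are apart for PFKP, at 61.5 to 62.2% and 64.2 to 64.7%, and overlap for LDHA and HK2.

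Glucose enters through transporters and is trapped by hexokinases. Of 11 such genes, 6 were expressed enough to be tested, none passed at either threshold, and their median fold change was 0.11, with 0.03 without control replicate 3, 0.07 without TAX replicate 1 and 0.19 without control replicate 2. SLC2A1 (GLUT1) had 74.6, 87.7 and 54.0 FPKM in control and 85.6, 64.8 and 77.9 FPKM in TAX. HK2, the inducible hexokinase, had 18.3, 33.6 and 14.9 FPKM in control and 34.7, 16.6 and 30.1 FPKM in TAX. Both genes were high in control replicate 2 and TAX replicates 1 and 3 and low in TAX replicate 2 and control replicate 3, so they varied within groups more than between them. HK2 made up from 22.2 to 38.0% of the hexokinase FPKM over the libraries (exact permutation p = 1, n = 3). HK1, the housekeeping form, had 57.2, 53.5 and 44.2 FPKM in control and 58.2, 57.3 and 59.3 FPKM in TAX, so that all TAX values were above all controls (limma adjusted p = 0.564). SLC2A6, with HK1 the gene of smallest p in this list, had a fold change of 0.13 (adjusted p = 0.604).

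Of the 14 other isozymes of the steps, 8 were tested, with a median of 0.03 that was 0.12 without control replicate 2, 0.08 without TAX replicate 2 and 0.01 without TAX replicate 1. At an unadjusted p of 0.05 only the muscle enolase ENO3 was higher, at 5.76, 6.08 and 5.66 FPKM in control and 8.01, 7.09 and 6.15 FPKM in TAX (log2 fold change 0.24, limma adjusted p = 0.444). The groups of ENO3 did not overlap, but the gene made up at most 0.537% of the enolase FPKM.

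Among 16 regulators and enzymes of the reverse pathway, 12 were tested and none passed the adjusted threshold. The median was 0.09, ranging from -0.0069 without control replicate 3 to 0.15 without control replicate 2. At an unadjusted p of 0.05 by limma, 1 was higher (PFKFB2) and 1 lower (MLXIPL), against 7.73% and 2.41% of all tested genes. Of the 12, 2 were higher and 2 lower without overlap, where all tested genes had 14.6% and 3.34%. PFKFB2, a bifunctional enzyme that sets the level of the phosphofructokinase activator fructose 2,6-bisphosphate, had 6.77, 7.78 and 7.01 FPKM in control and 8.89, 8.30 and 9.33 FPKM in TAX. All TAX values were above all controls (log2 fold change 0.27, SE 0.08, limma adjusted p = 0.321). MLXIPL, which encodes the glucose-sensing factor ChREBP, had 2.47, 1.86 and 1.78 FPKM in control and 1.40, 1.54 and 1.52 FPKM in TAX, without overlap and lower in TAX (log2 fold change -0.28, limma adjusted p = 0.373). Its level was close to the 1 FPKM that genes had to reach to be tested, and the ratio of its means, TAX to control, was 0.728. PFKFB3, the isoform known from proliferating cells, had 26.2, 45.1 and 24.1 FPKM in control and 40.5, 26.3 and 35.0 FPKM in TAX, and PFKFB4 13.9, 18.4 and 10.6 against 16.5, 12.02 and 15.8. Both had the pattern over libraries seen in HK2, with overlap between the groups.

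Of 19 genes for the fate of lactate and pyruvate, 17 were tested and the median was 0.03, with -0.0057 without control replicate 3, 0.0092 without TAX replicate 1 and 0.05 without control replicate 2. The lactate transporters SLC16A1 (34.0 ± 3.87 and 37.2 ± 2.39 FPKM, SD, n = 3) and SLC16A3 (81.0 ± 5.42 and 82.9 ± 4.68 FPKM, SD, n = 3) overlapped between groups. Their chaperone BSG had 275 ± 27.8 and 308 ± 14.9 FPKM without overlap (log2 fold change 0.17, limma adjusted p = 0.591). PDK4, a kinase that shuts off pyruvate dehydrogenase, was the only gene of the list with an unadjusted p under 0.05. It had 1.61, 1.90 and 1.44 FPKM in control and 1.13, 1.23 and 1.09 FPKM in TAX, all TAX values being lower (log2 fold change -0.30, SE 0.09, limma adjusted p = 0.269). PDK4 was close to the level of 1 FPKM that genes had to reach to be tested.

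Since most of the enzymes are known HIF targets, 17 hypoxia-induced genes outside glycolysis were examined beside them. CA9 was listed at 0 in every library, and of the 16 tested genes none passed at either threshold, with a median of -0.12 that became 0.10 without control replicate 2, -0.0018 without TAX replicate 2 and -0.23 without control replicate 3. NDRG1 had 186, 300 and 134 FPKM in control and 201, 126 and 190 FPKM in TAX. ADM had 5.86, 17.2 and 4.13 FPKM in control and 7.51, 2.68 and 7.13 FPKM in TAX. The summed FPKM of the list was 1094, 1419 and 907 in control and 1145, 850 and 1077 in TAX. Control replicate 2 held the highest value for 12 of the 16 genes and TAX replicate 2 the lowest for 10. Among all tested genes, control replicate 2 was highest for 19.4% and TAX replicate 2 lowest for 7.65%. The genes of smallest p were EGLN1, an oxygen sensor (log2 fold change 0.21, limma adjusted p = 0.507), and PLOD2, a collagen hydroxylase (-0.25, adjusted p = 0.529).

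Of the 10 enzymes, 4 were highest in control replicate 2, namely ALDOA, GAPDH, PGK1 and LDHA, and none was lowest in TAX replicate 2. Those shares were 19.4% and 7.65% of all tested genes, so that none of 10 lies near the latter. HK2, PFKFB3 and SLC2A1 were high in control replicate 2 and low in TAX replicate 2, as most of the hypoxia-induced genes were. LDHA and PGK1, whose windows held the most matches of ACGTG, had log2 fold changes of 0.10 and 0.04. Whether the matches bear on the levels of these genes was not tested.

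**Figure D4:**
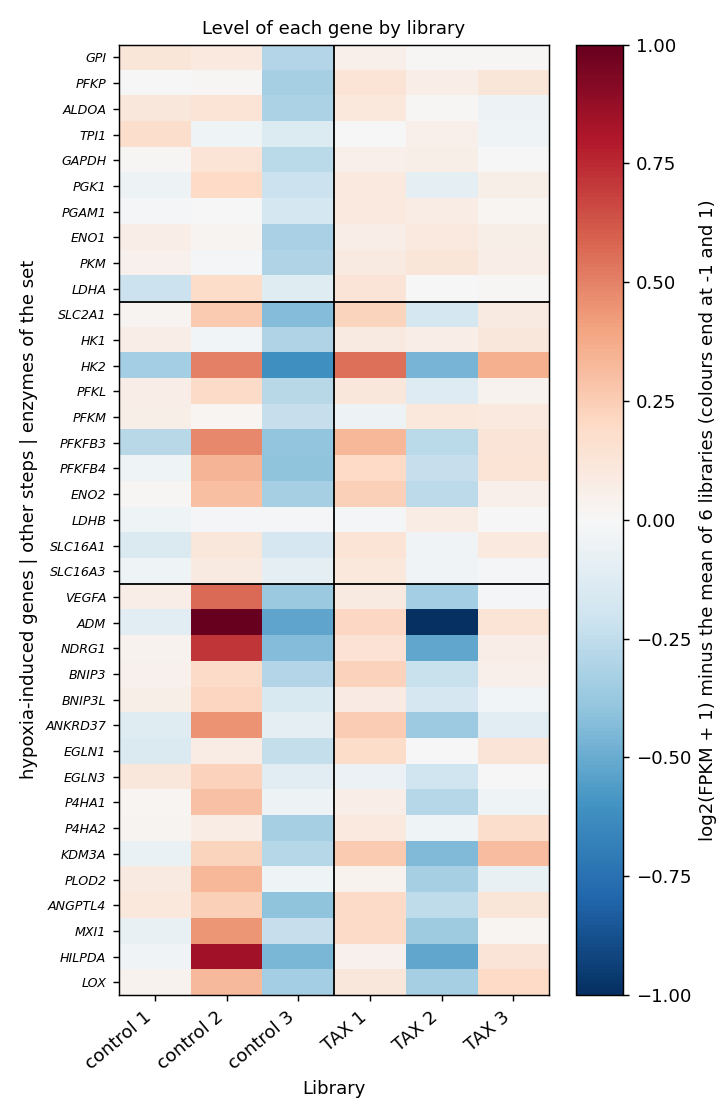
Log2(FPKM + 1) of each gene in each library minus its mean over the 6 libraries (red, above; blue, below; the colors end at -1 and 1), for the 10 enzymes, genes of neighboring steps and 16 hypoxia-induced genes. Control replicate 3 is blue for the enzymes, and control replicate 2 is red and TAX replicate 2 blue for most hypoxia-induced genes.

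GAPDH was then compared with 18 other genes in common use as qPCR references, of which PGK1 is one. Over the 6 libraries, the coefficient of variation of GAPDH was 9.20%, which ranked 12 of 19, and 48.8% of all tested genes varied less. TBP had the lowest value, 4.65%, and ACTB the highest, 15.0%, while PGK1 had 10.3%. Much of the spread of GAPDH lay in control replicate 3, without which its coefficient of variation was 3.75% and its rank 3, and that of ACTB was 3.81%. With each library scaled to an equal sum, GAPDH had 6.70% and ranked 10. Of the 19 genes, none passed the adjusted threshold and the median was 0.10, or 0.02 without control replicate 3. HPRT1 alone was higher at an unadjusted p of 0.05. It had 37.3, 39.8 and 38.7 FPKM in control and 45.3, 45.4 and 41.5 FPKM in TAX, without overlap (log2 fold change 0.19, limma adjusted p = 0.465). RPLP0, next by p, had a log2 fold change of 0.21 (limma adjusted p = 0.538). RPLP0 and ACTB (log2 fold change 0.26) were also higher without overlap, and B2M (-0.16) was lower without overlap. This makes 3 of the 19 higher and 1 lower, where all tested genes had 14.6% and 3.34%.

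Dividing each library by its own GAPDH value, as a qPCR reference is used, changed the number of genes that passed the adjusted threshold from 39 higher and 20 lower to 17 higher and 34 lower. On that scale PFKP, PGAM1, ENO1, PKM and LDHA kept positive fold changes and GPI, ALDOA, TPI1 and PGK1 had negative ones, none past the threshold.

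**Figure D5:**
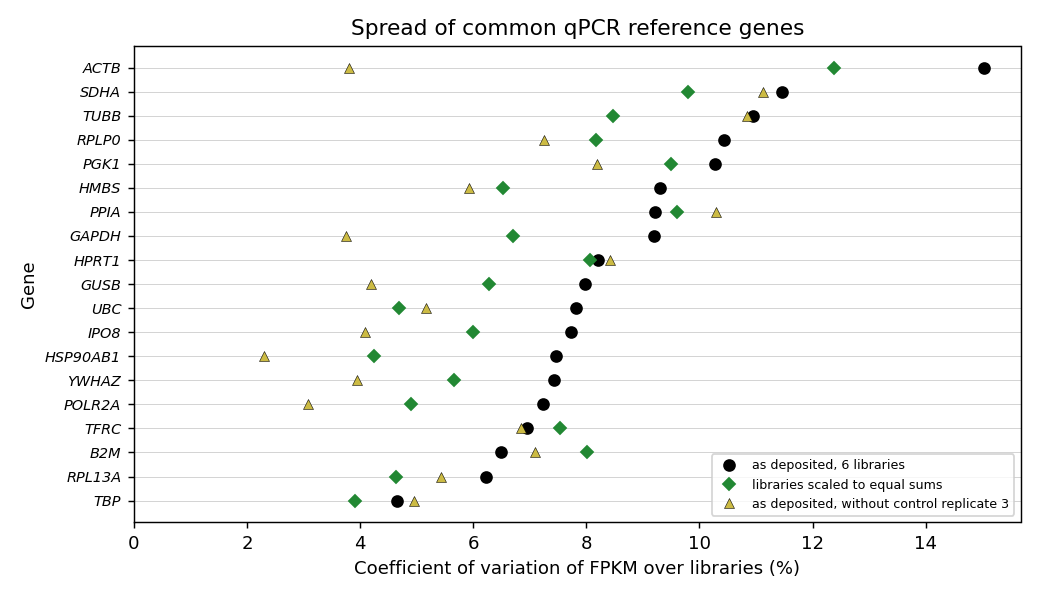
Coefficient of variation of FPKM over libraries for 19 common qPCR reference genes, as deposited (black), with libraries scaled to equal sums (green) and without control replicate 3 (yellow). GAPDH moves from 9.20% to 3.75% and ACTB from 15.0% to 3.81% when control replicate 3 is left out.

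Other annotated genes share part of the enzymes' loci. AC093512.2 overlaps exons of ALDOA on the same strand and had 40.4 to 53.8 FPKM, SPSB2 overlaps TPI1 on the opposite strand with 5.86 to 7.74 FPKM, and ATP7A overlaps PGK1 on the same strand with 1.86 to 2.21 FPKM. The setting for strand in counting was not stated, so reads of TPI1 and SPSB2 cannot be told apart from these values. Strand could not separate reads from the exons that ALDOA shares with AC093512.2 or PGK1 with ATP7A. How such reads were assigned was not stated. The levels of these neighbors were small beside those of the enzymes.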

How the data were processed

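RNA was isolated from DU145 cells with Trizol, mRNA libraries were made, and the authors gave each library a table of its own. The submitters' processing notes name HISAT2 2.2.0, StringTie 2.1.2 and GRCh38. The deposited values are taken as FPKM. StringTie gives both FPKM and TPM, and the tables name neither. With unequal sums, TPM remains possible only if rows were left out. The same test would apply. Strand setting, annotation and read totals are not given in the sources used here. Groups were taken from the labels (3 control, 3 TAX).

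Genes that reached 1 FPKM in 3 or more libraries (12359 of 23062, 3130 of the latter being unnamed MSTRG loci) were tested with limma 3.58.1 (trend) on log2(FPKM + 1) in R 4.3.3, with Benjamini-Hochberg adjustment over all of them and a threshold of 0.05. Fold changes on this scale understate the change of low genes. Single values were compared by the exact two-sided permutation test. The method was tested on simulated data. Positions, pseudogenes and overlaps came from GENCODE 29, and promoter windows from RefSeq (GRCh38.p14), in which all 10 enzymes were matched. The enzymes and lists were chosen with earlier results of these data known. Named were all 10 enzymes, of each other list the genes past the adjusted threshold, the 2 of smallest p and 12 genes of neighboring steps, the reference genes of lowest and highest variation, pseudogenes, and the 3 genes most like the mean of the enzymes. NDRG1 and ADM were chosen after their values were seen. B2M, CA9, PGD, SLC2A3, SLC2A4 and SLC2A8 were also named outside these rules, as were cell type markers and genes that overlap the enzymes. Same-numbered libraries did not deviate together (r = -0.12, -0.33 and -0.17), so numbers were not taken as pairs. Alternatives covered the pseudocount, the filter on low values, scaling, the variance model, a replicate block, the threshold and each library left out.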

Additional observations from a re-analysis of the deposited data

How the results depend on the processing

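None of the 10 enzymes passed an adjusted p of 0.05 by limma in any of 15 alternatives (lowest adjusted p 0.349, PFKP). The 2 filters, limma without trend and the replicate block leave fold changes as they are. Of the 109 enzyme values under the other 11 alternatives, 89 kept their sign and 20 reversed. TPI1 was -0.025 with equal sums. Quantile normalization gave -0.012 for GPI, -0.049 for TPI1 and -0.022 for PGK1. Median centring gave -0.0065 for GPI, -0.018 for ALDOA, -0.054 for TPI1 and -0.016 for PGK1, and division by GAPDH -0.026, -0.038, -0.074 and -0.035. With a library left out, the fold change ranged from -0.083 to 0.12 for GPI, from -0.11 to 0.12 for ALDOA, from -0.064 to 0.091 for TPI1, from -0.038 to 0.17 for GAPDH and from -0.054 to 0.15 for PGK1. The lowest of each came without control replicate 3. Over all tested genes, 39 were higher and 20 lower. These counts were 0 and 1 with no filter, 25 and 12 with the lower filter of 0.1 FPKM, 17 and 34 after division by GAPDH, and 955 and 298 at an unadjusted p of 0.05. The number lower was 48 after quantile normalization and 50 after median centring. With each library left out, 9 to 28 were higher and 8 to 15 lower, and each library moved the number higher by over 1.5 times except control replicate 2 (28) and the number lower except control replicate 3 (15). With a replicate block, 13 were higher and 13 lower, and no enzyme passed. The cause of these changes was not tested, except that the filters change the number of genes tested (20280 with none, 16698 with the lower one). The coefficient of variation of GAPDH moved from 9.20 to 3.75% without control replicate 3, an alternative chosen after seeing the data, as were the equal-sum scaling of that value and the overlap counts without that library.

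Adding the pseudogenes to their parent genes was not run, because no pseudogene of an enzyme had a row. The 3 libraries a group limit the precision, and depth is unknown, so no counting error can be given. The SE of the log2 fold changes of the enzymes was between 0.09 and 0.13.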

Other observations

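The pentose phosphate pathway branches from glycolysis at glucose 6-phosphate and supplies NADPH and ribose. Of its 9 genes, 8 were tested, none passed the adjusted threshold of limma, and the median fold change was 0.06 against 0.05 for all tested genes. Leaving out a library moved it to 0.13 without control replicate 1, 0.12 without TAX replicate 3, 0.02 without TAX replicate 2 and -0.02 without control replicate 3. RPIA, which forms ribose 5-phosphate, was the only one higher at an unadjusted p of 0.05, with 5.32, 6.46 and 6.12 FPKM in control and 7.19, 7.29 and 7.48 FPKM in TAX. All TAX values of RPIA were above all controls (log2 fold change 0.26, limma adjusted p = 0.344). TALDO1, a transaldolase, had the next smallest p, with 87.5 ± 10.5 and 96.9 ± 6.37 FPKM (SD, n = 3; limma adjusted p = 0.639), and its groups overlapped. PGD, a dehydrogenase of the pathway, had a fold change of -0.09 that passed neither threshold. Which of these small differences would hold in more cultures was not tested.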
